A study of Oryza sativa Indica Group with 8 samples.

Results

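Rice seedlings of the Oryza sativa Indica Group were deprived of phosphorus (P) while iron (Fe) was still supplied, and gene expression was measured in their roots. The comparison rests on 4 of the 8 Affymetrix rice arrays of the series, the 2 arrays of P deficiency and the 2 control arrays, chosen by their labels. The other 4 arrays, 2 of combined P and Fe deficiency and 2 of Fe deficiency, entered the estimate of the spread and served as a second comparison of roots without and with P, made where Fe was withheld from both. All 4 groups were hydroponic seedlings of the same subspecies. The labels give 5 days as the age of the seedlings, 10 days of hydroponic growth and 7 days of treatment, without saying how these times fit together. They name no variety and no concentration of P or Fe. Whether both arrays of a group stand for separate cultures is not stated, and the p-values therefore reflect array-to-array spread, possibly technical.

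Plants short of phosphate switch on a conserved programme. PHR transcription factors activate it, and SPX proteins, which sense phosphate status, hold PHR factors back while phosphate is plentiful. The programme is known for phosphate uptake by PHT1 transporters, replacement of phospholipids by galactolipids, release of phosphate from internal stores, secretion of acids, changes in root growth, and accumulation of sugars and flavonoids. SPX, MGD (galactolipid synthase) and PHT1 genes are its best-known members. The genes described below are mostly others: those of metal, nitrogen, potassium and sugar transport, the cell wall, cell division, hormones and plastids.

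Values are quantile-normalized array intensities, given array by array, and changes are differences of log2(intensity + 16), P deficiency minus control, with their standard error (SE). A gene was called with a limma adjusted p under 0.05 over all 57194 probe sets tested. Between the arrays, the median intensity before normalization was 62.2 and 62.9 in P deficiency, against 48.0 and 54.4 in the control, and it was 63.9 and 68.9 with both nutrients withheld, against 53.3 and 48.1 in Fe deficiency. The log2 difference between 3' and 5' probe sets of actin, a sign of RNA integrity and labelling, was 4.38 and 4.40 in P deficiency, against 5.50 and 5.11 in the control. For Gapdh it was 3.14 and 3.04 in P deficiency, against 3.66 and 3.56 in the control. Both measures thus moved with the groups, and their part in the results was not tested.

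In P deficiency 2417 probe sets were called higher and 2319 lower. That was 8.28% of the probe sets tested, 4.23% higher and 4.05% lower. With 1 probe set per gene, 1436 of 17905 genes (8.02%) were called higher and 1313 (7.33%) lower, 15.4% together, and the median change was -0.0194. Of the 2446 genes with a name, 18.4% were called, 10.1% higher and 8.26% lower. With arrays scaled to their own medians in place of quantile normalization, 32.8% of the calls were higher, against 51.0% here, and the median change over all probe sets was -0.147. The gene shares are the background for every list below. Of the 27918 probe sets with a mean intensity under 50, 2.02% were called, and of the 9611 with a mean of 1000 or more, 19.2%. A total of 1561 genes were called with a change of at least 2-fold, arrays that did not overlap and a mean of at least 100 in the higher group, but only 245 of them carry a name, 142 higher and 103 lower. Among the 1316 without a name, LOC4345161 had 2839 and 2676 in P deficiency, against 37.8 and 58.4 in the control (5.45, limma adjusted p = 0.00432), and LOC4348268 had 0.932 and 5.04 in P deficiency, against 203 and 113 in the control (-3.15, adjusted p = 0.00908). LOC4327106 had 5572 and 3737 in P deficiency, against 61.8 and 147 in the control (5.35, adjusted p = 0.0101), and LOC4347266 had 28.0 and 45.3 in P deficiency, against 473 and 392 in the control (-3.1, adjusted p = 0.00743). On withholding P without Fe the changes were 4.85 for LOC4345161 and -1.98 for LOC4348268, but -0.17 for LOC4327106 and 0.21 for LOC4347266. The difference between both effects did not pass for LOC4327106 (limma adjusted p = 0.183) or LOC4347266 (0.126). List counts below cover genes with a name only, so the shares over named genes are their nearer background.

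**Figure D1:**
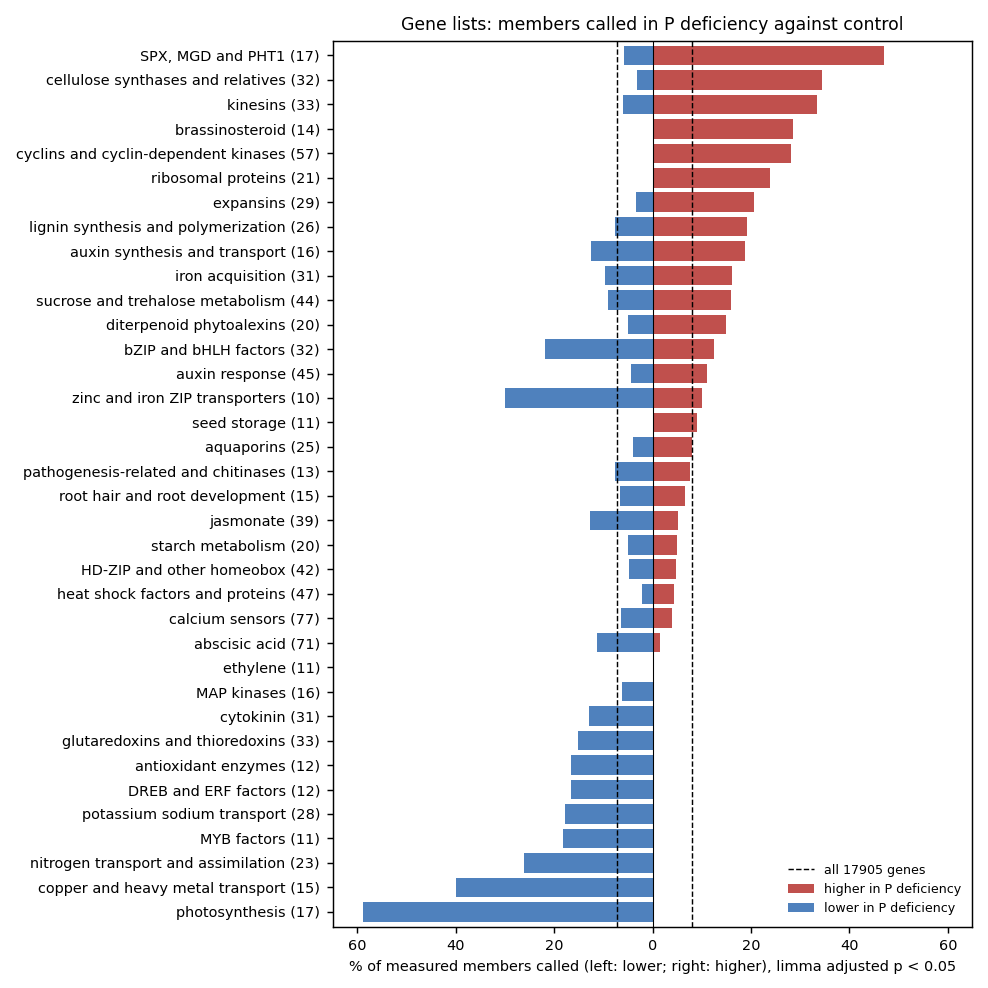
Share of measured members called higher (right, red) or lower (left, blue) in P deficiency against control, for each gene list with at least 10 measured members, whose number stands in brackets. Dashed lines mark the shares over all 17905 genes, 8.02% higher and 7.33% lower. The lists hold named genes only, of which 10.1% were called higher and 8.26% lower, so the lines lie somewhat low for them. Cellulose synthases, kinesins and cyclins reach well past the right line, and photosynthesis, copper and nitrogen genes past the left.

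Of 17 SPX, MGD and PHT1 genes measured, 8 rose and 1 fell. Their 6 largest rises, from 3.39 for OsSPX1 to 5.98 for OsSPX3, were the 6 largest among genes named by the rule. Changes of regulators of phosphate supply lay between -0.85 and 0.95. OsPHR3 (LOC4328249) had 557 and 629 in P deficiency, against 1054 and 1099 in the control (-0.85, SE 0.177, limma adjusted p = 0.0453). PHR2 (LOC4343086), the central PHR factor of rice, had 2217 and 1965 in P deficiency and 2772 and 2775 in the control, which did not pass (-0.41, adjusted p = 0.141). OsPHR1 (-0.39), SIZ1 (-0.40) and SIZ2 (-0.03), the last pair SUMO ligases, did not pass either. The auxin response factor OsARF8 (LOC4337363, also named ARF12) rose, with 2409 and 2231 in P deficiency, against 1217 and 1165 in the control (0.95, adjusted p = 0.0181). ARF16 (LOC9270361, 0.92, adjusted p = 0.0796) and OsARF16 (LOC4327785, 0.42, adjusted p = 0.195) had positive changes that did not pass. In sum 1 of 8 regulators rose and 1 fell.

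NIGT1 (LOC4329184) encodes a GARP-family transcriptional repressor that nitrate induces. It had 2009 and 2288 in P deficiency, against 415 and 399 in the control, which is 2.35 higher on the log2 scale (SE 0.152, limma adjusted p = 0.00557). Its arrays were separate between the groups, which the rule for naming required. OsPHT3 (LOC4347747), by its name of the mitochondrial phosphate carriers, was the member that rose among 3 measured genes of phosphate release and other phosphate transport, with 778 and 792 in P deficiency, against 303 and 364 in the control (1.20, adjusted p = 0.0129). OsPHO1;2 (LOC4331090), which loads phosphate into the xylem, had 18224 and 18934 in P deficiency and 20551 and 19851 in the control (-0.12, adjusted p = 0.661). OsPHO1;3 gave 0.32 (adjusted p = 0.585). Of 3 lipid genes outside the MGD family, PLD2 (0.30), OsSFR2 (0.18) and PLD1 (0.10), none was called.

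Strigolactones and the signalling of root symbiosis are both known to respond to low phosphate in rice. HTD2 (LOC4331983), the strigolactone receptor also called D14, fell to 8862 and 8376 in P deficiency, against 14577 and 14552 in the control (-0.76, SE 0.136, limma adjusted p = 0.031). The synthesis genes OsCCD7 (-0.19) and OsCCD8a (-0.89) and the F-box gene D3 (-0.03) did not pass. OsCCD8a was dim, at 9.07 and 18.4 in P deficiency and 75.9 and 16.4 in the control, so the groups overlapped. The 6 measured symbiosis genes, OsPT11, RLK10, OsCERK1, OsPOLLUX, OsCCaMK and OsCASTOR, lay between -0.49 and 0.10, and none was called.

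OsZIP1 (LOC4326394), a ZIP-family transporter gene, was the largest named fall, with 202 and 204 in P deficiency, against 1606 and 1866 in the control (-3.0, SE 0.296, limma adjusted p = 0.00907). OsZIP5 (-0.71) and OsZIP6 (-0.74) fell as well, while OsIRT1 (LOC4333669), the ferrous iron transporter, rose to 229 and 259 in P deficiency, against 118 and 114 in the control (0.98, adjusted p = 0.028). That gave 1 rise and 3 falls among 10 ZIP genes. The copper uptake gene OsCOPT1 (LOC4324610) had 498 and 382 in P deficiency, against 1984 and 1926 in the control (-2.12, SE 0.180, adjusted p = 0.00751). OsCOPT2 (LOC4338846) had 24.1 and 26.4 in P deficiency, against 129 and 155 in the control (-1.93, adjusted p = 0.00751). Of 15 copper and heavy metal genes 6 fell and none rose, with a median of -0.51. The others were the P-type ATPase genes OsHMA2 (-1.02) and OsHMA5 (-0.86), OsMTP5 (-0.73) and CCS1 (LOC4334251, -1.92). CCS1 entered the list by its name alone, with 114 and 159 in P deficiency, against 471 and 650 in the control.

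Iron acquisition genes, measured here with Fe in the medium, went both ways, 5 of 31 higher and 3 lower. The vacuolar iron transporter gene OsVIT1 (LOC4336075) had 409 and 342 in P deficiency, against 76.7 and 140 in the control (1.70, SE 0.265, limma adjusted p = 0.0217). The nicotianamine synthase genes OsNAS1 (0.85), OsNAS2 (0.88) and OsNAS3 (0.84) and NRAMP4 (0.81) also rose. The next enzyme towards mugineic acids, nicotianamine aminotransferase OsNAAT1 (LOC9267778), fell to 4009 and 4001 in P deficiency, against 7399 and 7831 in the control (-0.92, adjusted p = 0.0173). OsYSL13 (-1.10) and YSL12 (-0.75), of the family that carries metals bound to nicotianamine, fell too. Consecutive steps of this pathway therefore did not share a direction. Of 7 metallothioneins, small metal-binding proteins, OsIDS1 (1.46) and OsMT-I-2b (0.85) rose, and the groups of both were separate.

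Nitrogen genes that passed had fallen, 6 of 23, while none rose. The cytosolic glutamine synthetase OsGS1;2 (LOC4332108), the main ammonium-assimilating enzyme of rice roots, had 5095 and 4761 in P deficiency, against 14313 and 12869 in the control (-1.46, SE 0.137, limma adjusted p = 0.00858). The ammonium transporter OsAMT1;2 (LOC4330008) had 241 and 306 in P deficiency, against 606 and 906 in the control (-1.40, SE 0.249, adjusted p = 0.0302). Nitrate reductase NR1 (LOC4345795) had 8576 and 8633 in P deficiency, against 17300 and 17389 in the control (-1.01, adjusted p = 0.0128). Another probe set of NR1, a dim one, was 3.26-fold higher and was not called (adjusted p = 0.0551). OsAMT1;1 (-0.79), GLU (-0.81) and OsGDH1 (-0.70) completed the falls. The high-affinity nitrate transporter OsNRT2.2 was dim and overlapped, at 44.8 and 14.5 in P deficiency and 109 and 62.6 in the control. The only named match of the sulfate list, OsAPRL1 (LOC4343348), was called lower as well (-0.94, adjusted p = 0.0196), and of its other probe sets one was 2.17-fold lower but another, a dim one, 2.92-fold higher.

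Potassium and sodium transporters had 5 falls (17.9%) and no rise among 28. Of all named genes 18.4% were called, 8.26% of them all lower. OsHAK16 (LOC4333298) had 405 and 568 in P deficiency, against 1585 and 1733 in the control (-1.75, SE 0.213, limma adjusted p = 0.0124). OsHKT1;5 (LOC4327757), which withdraws sodium from the xylem, had 687 and 691 in P deficiency, against 1668 and 1841 in the control (-1.33, adjusted p = 0.00908). The high-affinity potassium uptake gene OsHAK1 gave -0.81 (adjusted p = 0.0221), whereas the channel gene OsAKT1 gave 0.02. Water channel genes were called about as often as genes at large, 2 of 25 higher and 1 lower. OsTIP2;1 (LOC4330207), a channel of the vacuole membrane, reached 20395 and 21034 in P deficiency, against 8633 and 8855 in the control (1.24, adjusted p = 0.00941), and OsPIP2;8 (LOC4334873) had 177 and 191 in P deficiency, against 56.6 and 47.9 in the control (1.55, adjusted p = 0.0112). The silicon influx channel Lsi1 fell (-0.67, adjusted p = 0.0444).

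Sugar genes split, with 7 of 44 higher and 4 lower. The sugar exporters OsSWEET11 (LOC4346153) and OsSWEET1a (LOC4324848) rose. OsSWEET11 had 226 and 169 in P deficiency, against 36.3 and 46.8 in the control (1.89, SE 0.206, limma adjusted p = 0.0103). OsSWEET1a had 2172 and 1957 in P deficiency, against 735 and 713 in the control (1.49, adjusted p = 0.0101). OsSWEET4 (0.92), the sucrose synthases OsSUS5 (0.96) and OsSUS6 (1.23) and the sucrose phosphate synthase OsSPS2 (0.91) rose as well. Of 5 named OsCIN genes, cell wall invertases that split sucrose outside the cell, 3 fell. OsCIN2 (LOC4335790) had 1293 and 1426 in P deficiency, against 3540 and 3265 in the control (-1.31, adjusted p = 0.00941), OsCIN4 gave -0.89 and OsCIN7 -0.86, while OsCIN1 (-0.21) and OsCIN3 (0.78) did not pass. Trehalose-phosphate phosphatases differed between members. OsTPP7 (LOC4346885) had 71.8 and 98.1 in P deficiency, against 1.12 and 15.0 in the control (2.12, adjusted p = 0.0194), and OsTPP4 (LOC4330753) had 327 and 499 in P deficiency, against 1499 and 1269 in the control (-1.73, adjusted p = 0.0189).

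In starch metabolism 1 of 20 genes rose and 1 fell, a called share of 10.0%, against 18.4% of all named genes. AMY1.1 (LOC4330832), an alpha-amylase, had 196 and 127 in P deficiency, against 37.9 and 2.92 in the control (2.45, SE 0.507, limma adjusted p = 0.0443). Its control arrays were dim and far apart, so the size of that rise is inexact. OsMYBS1 (LOC4323963), a MYB factor that activates alpha-amylase genes under sugar starvation, fell to 208 and 153 in P deficiency, against 713 and 687 in the control (-1.88, adjusted p = 0.00907). Of 6 genes of organic acid metabolism, OsPK2 (LOC4351493), listed as a pyruvate kinase by its name, rose (1.01, adjusted p = 0.0375).

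**Figure D2:**
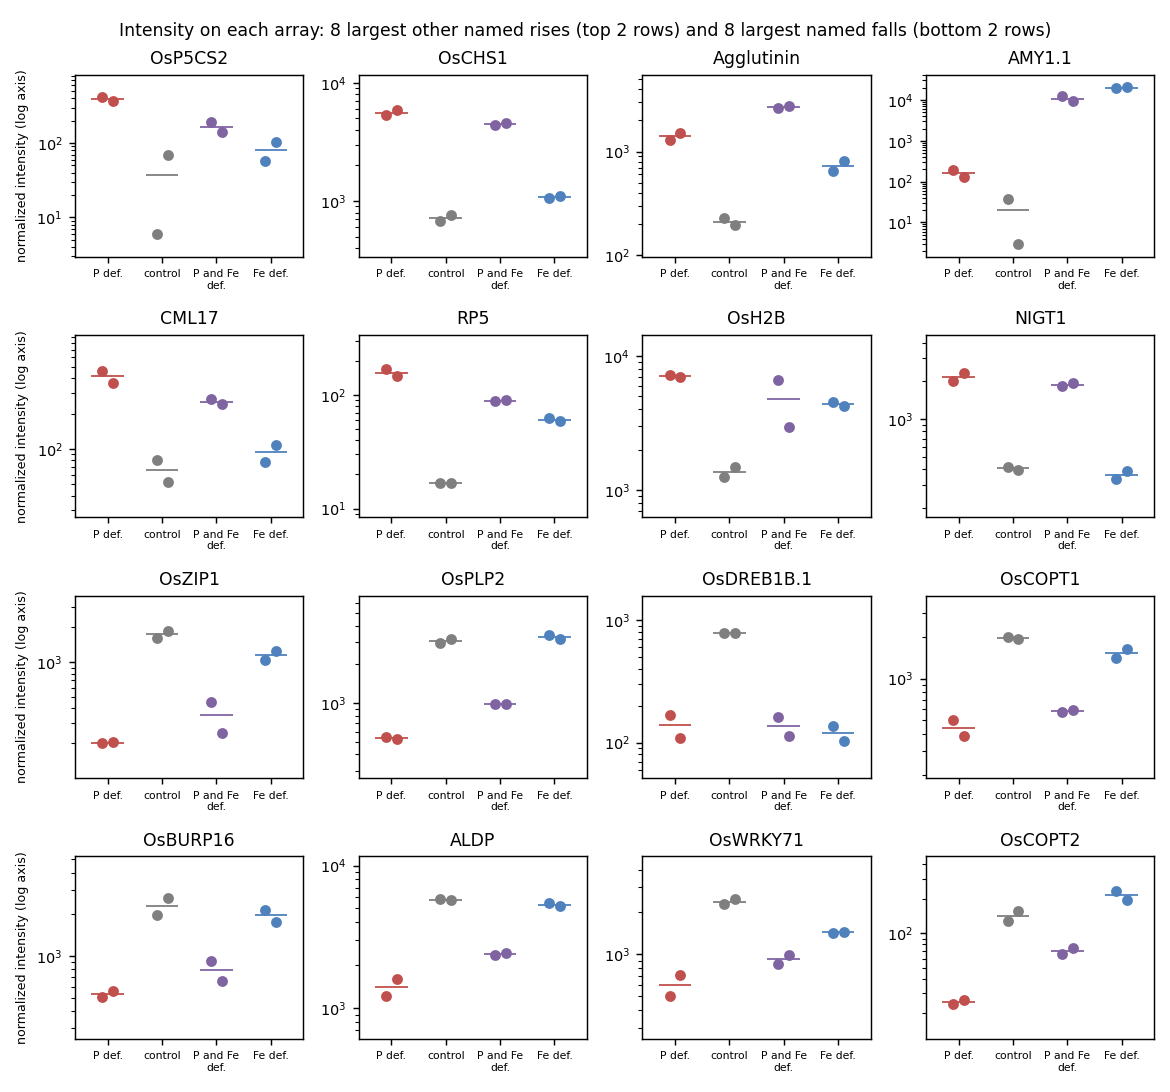
Quantile-normalized intensity on each array (dots, log axis) with the group mean (line) in P deficiency, control, P and Fe deficiency and Fe deficiency (2 arrays each). The panels show the 8 largest named rises after the SPX, MGD and PHT1 genes and the 8 largest named falls. In each panel both P deficiency arrays lie apart from both control arrays, which the rule for naming required. Without Fe the change is -0.91 for AMY1.1, 0.01 for OsH2B and 0.16 for OsDREB1B.1. The combined deficiency arrays of OsH2B disagree, at 6601 and 2978, against 4541 and 4268 in Fe deficiency.

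OsCHS1 (LOC4350636), chalcone synthase, the entry to flavonoids, had 5306 and 5884 in P deficiency, against 678 and 755 in the control (2.94, SE 0.141, limma adjusted p = 0.00371). Other probe sets of OsCHS1 were dimmer, gave 0.75, 0.77, -1.0 and 0.22, and none of them was called. CHI, the other named match of the flavonoid list, did not pass (0.34). OsADC2 (LOC4334917), arginine decarboxylase of polyamine synthesis, had 2014 and 2305 in P deficiency, against 379 and 542 in the control (2.21, adjusted p = 0.00941). OsP5CS2 (LOC4324853), of proline synthesis and the member called among 3 proline genes, had 419 and 370 in P deficiency, against 5.92 and 69.0 in the control (3.25, SE 0.638, adjusted p = 0.0387), and its control arrays disagreed widely. Its other probe sets were 2.74-fold lower, 2.36-fold higher and 1.00-fold, so the probe sets of this gene disagree.

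The diterpene cyclase OsCPS2 (LOC9266189), of phytoalexin synthesis, had 918 and 874 in P deficiency, against 242 and 139 in the control (2.19, SE 0.252, limma adjusted p = 0.0112). OsKS4 (1.32) and CYP99A2 (0.94) rose too, while CYP99A3 (LOC4335091) fell to 1315 and 1412 in P deficiency, against 3943 and 3563 in the control (-1.45, adjusted p = 0.00869). OsKS4, CYP99A2 and CYP99A3 all belong to momilactone synthesis, so the direction was not shared within that branch. In all 3 of 20 diterpenoid genes rose and 1 fell. A lectin gene, Agglutinin (LOC4335068), had 1298 and 1522 in P deficiency, against 226 and 193 in the control (2.66, adjusted p = 0.00571).

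Of 32 cellulose synthase, cellulose synthase-like and brittle culm genes 11 rose and 1 fell, and 21 had a positive change (median 0.55). OsCslC3 (LOC4345095), of the family that makes the xyloglucan backbone, had 2682 and 2621 in P deficiency, against 613 and 686 in the control (2.00, SE 0.160, limma adjusted p = 0.00687). OsCslF6 (LOC4344719), the mixed-linkage glucan synthase, had 6966 and 7426 in P deficiency, against 2179 and 2191 in the control (1.71, adjusted p = 0.00806). BC1 (LOC4333114), a COBRA-like protein needed for cellulose in thickened walls of rice, had 1686 and 2050 in P deficiency, against 428 and 519 in the control (1.94, adjusted p = 0.00908). OsCslF7 fell (-1.01). Neither of 2 xyloglucan and pectin genes was called.

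Both kinds of cellulose synthase were among the rises. Of the secondary wall, OsCesA4 (LOC4324625) had 7838 and 7808 in P deficiency, against 2954 and 2919 in the control (1.41, limma adjusted p = 0.00852), and OsCesA9 (1.42) and OsCesA7 (0.97) rose with it. Of the primary wall, OsCesA5 (LOC4334710) had 3532 and 3834 in P deficiency, against 1444 and 1457 in the control (1.33, adjusted p = 0.00929), and OsCesA6 (0.96) and OsCesA1 (0.83) rose. OsCesA2, OsCesA3 and OsCesA8 gave -0.29, 0.24 and 0.47 and did not pass.

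Lignin genes were mixed, with 5 of 26 higher, 2 lower and a median of 0.16 that turned to -0.05 with arrays scaled to their own medians. PRX74 (LOC4339222), a class III peroxidase, was among the most even of all genes, at 11928 and 11950 in P deficiency, against 2505 and 2525 in the control (2.24, SE 0.125, limma adjusted p = 0.00432). The laccases LAC10 (LOC4332400) and LAC4 (LOC4327500), which oxidise lignin precursors, rose. LAC10 had 5699 and 5347 in P deficiency, against 1423 and 1224 in the control (2.05), and LAC4 had 924 and 920 in P deficiency, against 245 and 193 in the control (2.01). LAC7 (-0.96) and LAC24 (-1.13) fell, so the family did not move as a whole.

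Of 29 expansins, which loosen walls during growth, 6 rose and 1 fell. OsEXP1 (LOC4335222) had 1679 and 1695 in P deficiency, against 524 and 490 in the control (1.70, SE 0.134, limma adjusted p = 0.00682). OsEXPB8 (LOC4331298) had 1155 and 1103 in P deficiency, against 397 and 405 in the control (1.46, adjusted p = 0.0145). The fall was that of OsEXLA2 (LOC4349265), at 201 and 158 in P deficiency, against 765 and 479 in the control (-1.68, adjusted p = 0.0202). Its probe set carries the suffix of sets that can bind related transcripts.

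**Figure D3:**
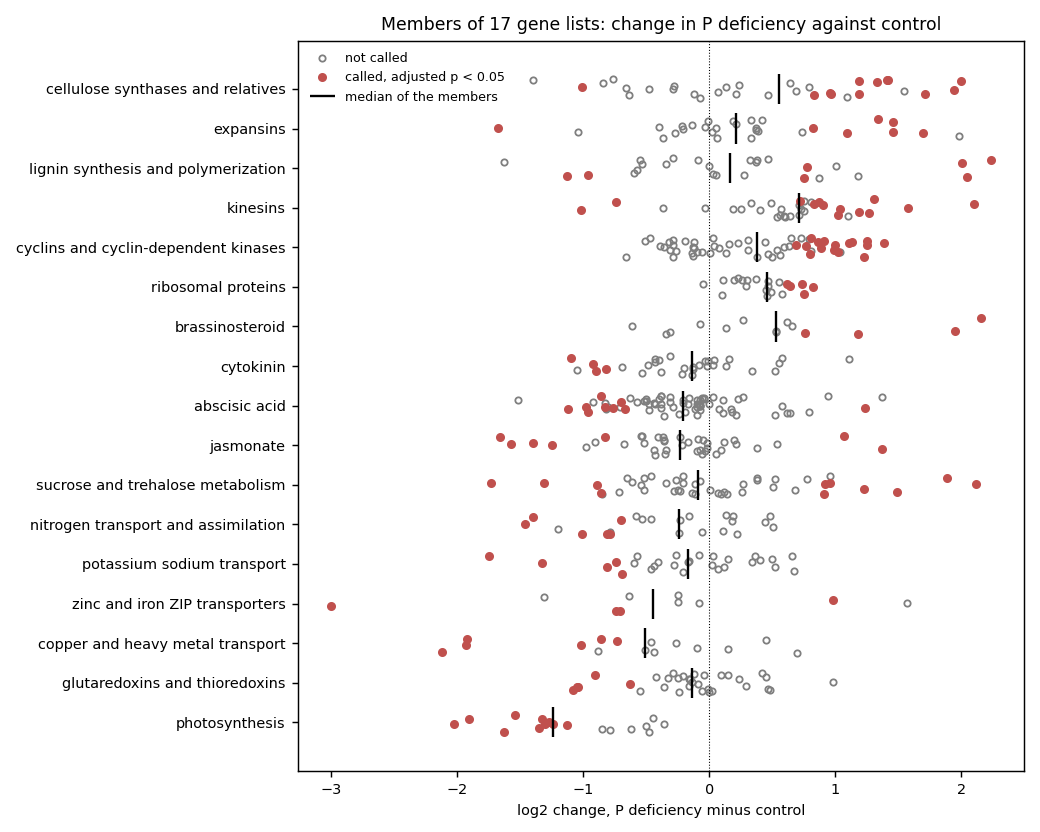
Log2 change (P deficiency minus control) of every measured member of 17 gene lists, 1 dot per gene, filled where called at a limma adjusted p under 0.05, with the median of each list as a bar. Ribosomal protein genes form a narrow band above 0, photosynthesis genes all lie below 0, and the sugar and lignin lists spread to both sides.

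Of 57 cyclin, cyclin-dependent kinase and DNA replication genes 16 rose, none fell, and 38 had a positive and 19 a negative change (median 0.38). CYCP4-1 (LOC4349405), a P-type cyclin, the class named for the phosphate-responsive PHO80 of yeast, had 2075 and 1863 in P deficiency, against 767 and 712 in the control (1.39, SE 0.140, limma adjusted p = 0.00908). The mitotic cyclin CYCB1-1 (LOC4327547) had 2761 and 2318 in P deficiency, against 1217 and 944 in the control (1.23, adjusted p = 0.0195). The origin recognition gene OsORC1 (LOC4340349) had 648 and 803 in P deficiency, against 299 and 290 in the control (1.25, adjusted p = 0.0159). OsMCM2, OsMCM3, OsMCM4 and OsMCM7, of the replicative helicase, rose by 0.86 to 1.00, and the sliding clamp OsPCNA by 0.81.

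Kinesins are motor proteins of microtubules, many of them active in division. Of 33 measured 11 rose and 2 fell, and 29 had a positive change (median 0.71). KIN14B (LOC9267695) had 823 and 854 in P deficiency, against 149 and 227 in the control (2.10, SE 0.259, limma adjusted p = 0.0127). KIN14M (LOC4341280) fell to 1409 and 1257 in P deficiency, against 2795 and 2633 in the control (-1.02, adjusted p = 0.0186), as did KIN14K (-0.74). The histone gene OsH2B (LOC4324500) had 7183 and 6951 in P deficiency, against 1251 and 1477 in the control (2.36, adjusted p = 0.0213), on a probe set that can bind related transcripts. Of 21 ribosomal protein genes 5 rose, and 20 had a positive change (median 0.46), led by RPS10-1 (0.82). No ribosomal protein gene was called with arrays scaled to their own medians.

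Summed over the list, kinesins had 43119 and 41159 in P deficiency, against 27757 and 27262 in the control, and the cell cycle genes had 77275 and 72575 in P deficiency, against 61675 and 60313 in the control. In whole roots, more dividing cells and more RNA per cell cannot be told apart, nor can fewer cells of a type and less RNA per cell. Of 8 genes taken as root tissue markers 4 rose and 2 fell. OsCASP1 (LOC4337453), of the Casparian strip of the endodermis, had 2462 and 2426 in P deficiency, against 722 and 694 in the control (1.77, limma adjusted p = 0.00687). The silicon efflux gene Lsi2 (LOC4331328) had 3149 and 3467 in P deficiency, against 8411 and 8011 in the control (-1.31, adjusted p = 0.0118). OsSHR1 (-0.29) and OsSCR1 (0.13), which pattern the root cortex and endodermis, did not pass.

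Genes of root hairs and root development were called at about the background rate, 1 of 15 higher and 1 lower. OsXXT1 (LOC4332564), a xylosyltransferase needed for root hairs, had 3922 and 3842 in P deficiency, against 2054 and 1983 in the control (0.94, limma adjusted p = 0.0158). The homeobox gene OsWOX6 fell (-1.18, adjusted p = 0.0251). The remaining members lay between -0.58 for OsRAA1 and 1.14 for OsWOX7, which was dim, and included RHD3 (-0.24), OsrbohB (0.53), OsGNA1 (0.52), OsCslD1 (-0.28), OsWOX4 (-0.32), OsWOX8 (-0.02), OsWOX9 (-0.44), OsWOX10 (-0.49) and OsWOX11 (-0.01).

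Of 14 brassinosteroid genes 4 rose and none fell (median 0.53). OsILI6 (LOC4331776), a helix-loop-helix protein, had 928 and 751 in P deficiency, against 184 and 226 in the control (1.95, SE 0.174, limma adjusted p = 0.00806). OsBU1 (LOC4340551), another such protein that brassinosteroid induces, had 65.7 and 97.2 in P deficiency, against 7.99 and 3.23 in the control (2.16, adjusted p = 0.011). OsDWARF (LOC4333399), the brassinosteroid C-6 oxidase, had 2208 and 2285 in P deficiency, against 940 and 1021 in the control (1.18, adjusted p = 0.0109), and OsCPD2 (0.76) rose too.

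Of 16 genes of auxin synthesis and transport 3 rose and 2 fell. OsPIN2 (LOC4341736), the efflux carrier of the root tip, had 1885 and 1560 in P deficiency, against 388 and 462 in the control (1.98, SE 0.227, limma adjusted p = 0.0111). OsPIN5 rose (1.15), and of the auxin-conjugating GH3 enzymes OsGH3-1 rose (2.09, adjusted p = 0.0496) while OsGH3-2 (-1.41) and OsGH3-6 (-0.96) fell. Of 45 auxin response genes 5 rose and 2 fell, a called share of 15.6%, against 18.4% of all named genes. The repressor IAA31 (LOC4352722) had 9015 and 5398 in P deficiency, against 1961 and 2494 in the control (1.65), with a wide gap between the P deficiency arrays. IAA12 (1.15) and IAA13 (1.12) rose and IAA1 fell (-0.86). SAUR39 (LOC9271092), a negative regulator of auxin in rice, had 332 and 439 in P deficiency, against 1371 and 1375 in the control (-1.80, adjusted p = 0.00855).

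Of 31 cytokinin genes 4 fell and none rose, a called share of 12.9%. Of all named genes 18.4% were called, 8.26% of them all lower. LOG (LOC4324445), which activates cytokinin, had 368 and 283 in P deficiency, against 681 and 745 in the control (-1.10, limma adjusted p = 0.0254). LOGL1 (-0.92) and LOGL7 (-0.82), of the same family, and the degrading oxidase OsCKX11 (-0.90) fell too. In the list of abscisic acid and protein phosphatase 2C genes 8 of 71 fell and 1 rose, a called share of 12.7%, under that of named genes. OsSAPK3 (LOC4349411), a kinase of that pathway, had 1983 and 1765 in P deficiency, against 4173 and 3976 in the control (-1.12, adjusted p = 0.0141), and the phosphatase OsPP2C13 rose (1.24). Of 39 jasmonate genes 5 fell and 2 rose, a called share of 17.9%, close to that of named genes. The repressor OsJAZ10 (LOC4331834) had 1212 and 1297 in P deficiency, against 3321 and 3342 in the control (-1.40, adjusted p = 0.00826). OsJAZ13 (LOC4348531) had 234 and 230 in P deficiency, against 950 and 620 in the control (-1.66, adjusted p = 0.0171), and the synthesis gene AOS3 gave -1.57. The synthesis genes LOX1.1 (1.07) and OsOPR12 (1.37) rose. None of 11 ethylene genes was called. Of 8 gibberellin genes OsKAO rose (1.14).

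Nuclear genes for photosynthesis had the largest called share of the lists with 10 or more members. Of 17 measured 10 fell and none rose, and all 17 changes were negative (median -1.24). The plastid aldolase ALDP (LOC4349897) had 1221 and 1605 in P deficiency, against 5785 and 5720 in the control (-2.03, SE 0.172, limma adjusted p = 0.00751). The light-regulated gene LIR1 (LOC4326442) had 845 and 1096 in P deficiency, against 3734 and 3571 in the control (-1.91, adjusted p = 0.00855). CHLH (LOC4332690), a subunit of magnesium chelatase in chlorophyll synthesis, had 206 and 227 in P deficiency, against 689 and 718 in the control (-1.63, adjusted p = 0.00746). Another probe set of CHLH went the other way without being called, with 230 and 230 in P deficiency, against 150 and 156 in the control (0.54, adjusted p = 0.164). The Rubisco small subunit OsrbcS (-1.54), Rubisco activase OsrcaA1 (-1.30), CHLP (-1.35) and PORB (-1.13) of chlorophyll synthesis, OsPSAG (-1.24), GOS5 (-1.33) and an LHCP gene (-1.27) completed the falls.

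Outside the list, petC (LOC4343570), the Rieske protein of the cytochrome b6f complex, had 1877 and 1791 in P deficiency, against 5846 and 5960 in the control (-1.68, SE 0.129, limma adjusted p = 0.00648). OEE3 (LOC4343515), of the oxygen-evolving complex, had 1592 and 1678 in P deficiency, against 5391 and 5003 in the control (-1.66). The ribosomal protein CL27 (LOC4327257), of plastids by its name, had 556 and 398 in P deficiency, against 1944 and 1448 in the control (-1.80), but its other probe sets gave 1.40-fold lower and 1.17-fold lower. The chloroplast ascorbate peroxidases OsAPx8 (-1.39) and OsAPx7 (-0.79) and the thioredoxin OsTrxm5 (-0.91) fell with them. Photosynthesis genes also served as markers of green tissue. Their summed level was 44054 and 42893 in P deficiency, against 82011 and 76894 in the control. No member was at 0 on any array, but that held for every marker set and does not show that a gene was expressed. The part of green tissue or light in these falls was not tested. Seed storage genes, a marker of leftover endosperm, summed to 4666 and 4136 in P deficiency and 5085 and 4675 in the control. The member called was the prolamin gene RP5 (LOC4342688), with 168 and 147 in P deficiency, against 16.9 and 16.8 in the control (2.40, adjusted p = 0.00432), which shares sequence with other prolamins and had another probe set that was 2.36-fold lower.

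Of transcription factor families, the called WRKY, MYB, NAC and DREB or ERF genes had fallen, but these lists are short. The called share was 33.3% of WRKY, 18.2% of MYB, 12.5% of NAC and 16.7% of DREB or ERF genes. Of all named genes 18.4% were called, 8.26% of them all lower. OsWRKY71 (LOC4328512) had 501 and 705 in P deficiency, against 2262 and 2486 in the control (-1.97, SE 0.202, limma adjusted p = 0.00929), and WRKY51 (-1.18) made 2 of 6. The cold-related factor OsDREB1B.1 (LOC4347618) had 168 and 109 in P deficiency, against 786 and 784 in the control (-2.40, adjusted p = 0.0108). Its relative CBF3 (LOC4347620) had 151 and 180 in P deficiency, against 695 and 591 in the control (-1.86, adjusted p = 0.0115), so 2 of 12 fell. OsMYB2 (-0.93) with OsMYBS1 made 2 of 11 MYB genes, and OsNAC5 (-0.94) 1 of 8 NAC genes. Among 32 bZIP and bHLH genes 4 rose and 7 fell. OsbZIP06 (LOC4325139) had 835 and 850 in P deficiency, against 131 and 210 in the control (2.24, adjusted p = 0.0103), and OsbZIP52 (LOC4341753) fell to 301 and 339 in P deficiency, against 938 and 874 in the control (-1.46, adjusted p = 0.00869).

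Of 77 calcium sensor genes 3 rose and 5 fell, a called share of 10.4%, against 18.4% of all named genes. CML17 (LOC9272185), a calmodulin-like protein, had 464 and 365 in P deficiency, against 79.9 and 52.5 in the control (2.40, SE 0.249, limma adjusted p = 0.00941), and CML31 (LOC4325408) fell to 419 and 429 in P deficiency, against 1307 and 1331 in the control (-1.60, adjusted p = 0.00687). The kinase OsCIPK18 (1.67) rose and OsCIPK10 (-1.08) fell. Of 47 heat shock genes 2 rose, among them the disaggregase CLPB1 (1.66), and 1 fell, a called share of 6.38%. The dehydrin RAB21 (LOC4350454) had 1059 and 1122 in P deficiency, against 272 and 294 in the control (1.89, adjusted p = 0.00743), and LEA19 (1.70) rose as well, the 2 rises among 8 late embryogenesis and dehydrin genes. Of 33 glutaredoxins and thioredoxins 5 fell (15.2%) and none rose, GRXS5 (-1.08) and GRXS9 (-1.04) among them. Of all named genes 8.26% were called lower. Lipid transfer proteins had 3 rises among 5 genes. Homeobox genes had 2 rises and 2 falls among 42 (9.52%), and MAP kinases 1 fall among 16 (6.25%). Glutathione S-transferases had 1 rise among 6 (16.7%), and pathogenesis-related and chitinase genes 1 rise and 1 fall among 13 (15.4%). These 4 shares lie under that of named genes. Of the named falls with no list, OsPLP2 (LOC4345833) had 549 and 526 in P deficiency, against 2906 and 3174 in the control (-2.46, adjusted p = 0.00432). OsBURP16 (LOC4348595), a BURP domain protein, had 506 and 554 in P deficiency, against 1983 and 2612 in the control (-2.07, adjusted p = 0.0112).

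The second comparison asked what withholding P did where Fe was absent from both groups. It uses none of the 4 arrays above, but the arrays share the quantile normalization and the estimate of the spread, and the raw array medians were again higher in the group without P. In combined deficiency against Fe deficiency 776 probe sets (1.36%) were called higher and 517 (0.904%) lower, 2.26% together. With 1 probe set per gene these were 2.64% higher and 1.47% lower, 4.11% together. Of the 2417 probe sets higher in P deficiency against the control, 2173 (89.9%) had the same sign in the second comparison and 610 (25.2%) were called in the same direction. Of the 2319 lower, 2114 (91.2%) had the same sign and 343 (14.8%) were called. Over all probe sets 36619 of 57194 had the same sign, and Pearson's r between the changes was 0.385, a description across probe sets that share arrays. Because the genes were taken for their change in the first comparison, a smaller value in the second is no sign of a weaker effect.

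**Figure D4:**
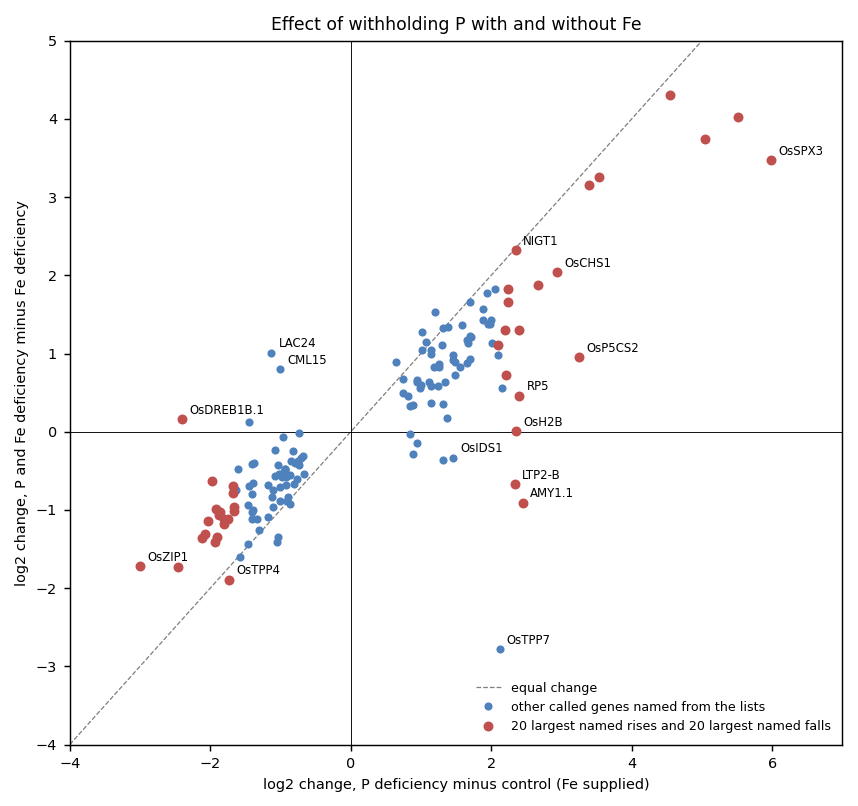
Log2 change on withholding P with Fe supplied (P deficiency minus control, horizontal) against the change without Fe (P and Fe deficiency minus Fe deficiency, vertical) for the 154 called genes named by rule, 40 of them the largest rises and falls (red). Of these genes 142 have the same sign in both; OsTPP7, AMY1.1 and LTP2-B lie below the horizontal line and LAC24 and CML15 above it.

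Without Fe the calls included 8 of 32 cellulose synthase genes, 4 of 57 cell cycle genes and 4 of 33 kinesins, all higher, and 4 of 17 photosynthesis genes, 2 of 15 copper genes and 1 of 23 nitrogen genes, all lower. No ribosomal protein gene was called, and of 28 potassium and sodium genes 1 was higher and 1 lower. NIGT1 had 1815 and 1922 in combined deficiency, against 336 and 390 in Fe deficiency (2.32, limma adjusted p = 0.0141), almost the value found with Fe. OsCHS1 (2.04, adjusted p = 0.0141), PRX74 (1.83, adjusted p = 0.0141), LAC10 (1.83, adjusted p = 0.0214), BC1 (1.78, adjusted p = 0.0276) and OsEXP1 (1.66, adjusted p = 0.0185) rose again. Of the sugar list OsSWEET11 (1.57), OsCIN2 (-1.26) and OsTPP4 (-1.89) kept their direction and passed. Among the falls OsPLP2 (-1.73), OsGS1;2 (-1.43), OsCOPT2 (-1.41), OsCOPT1 (-1.36), LIR1 (-1.35) and ALDP (-1.14) passed. OsZIP1 gave -1.72 and missed the threshold (adjusted p = 0.0528).

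A few genes did not keep their direction. OsTPP7 had 3.74 and 1.24 in combined deficiency, against 121 and 101 in Fe deficiency. That was a fall of 2.78 on the log2 scale (limma adjusted p = 0.0285), where it had risen with Fe supplied. Its combined deficiency and control arrays lay under the 16 added before log2, so the size of both changes depends on that number. Another probe set of OsTPP7 had the same signs but was not called with Fe (1.37, adjusted p = 0.13) or without (-1.55, adjusted p = 0.145). LTP2-B (LOC4351317), a lipid transfer protein, had 151 and 153 in P deficiency, against 15.6 and 18.8 in the control (2.34, adjusted p = 0.00447), but 1311 and 1237 in combined deficiency, against 1992 and 2088 in Fe deficiency (-0.67, adjusted p = 0.0707). AMY1.1 had 12281 and 9387 in combined deficiency, against 19355 and 20995 in Fe deficiency (-0.91, adjusted p = 0.431). OsDREB1B.1 had 162 and 113 in combined deficiency, against 137 and 103 in Fe deficiency (0.16, adjusted p = 0.823). The nicotianamine synthase genes OsNAS1 (-0.03) and OsNAS2 (-0.29) and the metallothionein OsIDS1 (-0.33) gave no call without Fe. The difference between the effects itself was called for 23 of 57194 probe sets (0.0402%, limma), and of the genes named here for LTP2-B alone. Other probe sets of LTP2-B did not pass. For OsTPP7, AMY1.1, OsDREB1B.1, OsNAS1, OsNAS2 and OsIDS1 the difference did not pass.

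The calls depended on pooling the spread over all 4 groups and on each single array of P deficiency. Without P deficiency replicate 1 or 2 only 6 or 3 probe sets were called, without control replicate 1 or 2 there were 1013 or 1378, and a limma fit of the 4 arrays alone called 0, with 11190 at an unadjusted p under 0.05. The 40 largest named rises and falls were chosen for separate arrays, which fixes their sign when 1 of those arrays is left out, and their direction is therefore no measure of stability. Of these, 40 were called without quantile normalization and with arrays scaled to their own medians. With 1 added before log2, and with a replicate block, 38 were called. In the fit of the 4 arrays alone 0 were called, and the lowest limma adjusted p was 0.106.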

How the data were processed

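Array intensities were deposited by the authors on a linear scale, 1 value per probe set and array, made with Affymetrix Expression Console 1.1 per the submitters' processing notes; how probes were summarised is not stated there. The trimmed mean of each deposited array was 500.07. Of 57381 probe sets, 123 AFFX and 64 RPTR controls were left out and 57194 were quantile-normalized over 8 arrays and taken as log2(intensity + 16). limma 3.58.1 under R 4.3.3 (lmFit, eBayes, 4 residual and 1.74 prior degrees of freedom) fitted 1 mean per group, with Benjamini-Hochberg adjustment. In a test on simulated data, 41.5%, 85.5% and 94.0% of log2 changes of 1, 2 and 3 were called, with 28 false calls. The changes were placed only in bright probe sets, with independent normal noise and no normalization step. These shares therefore do not cover dim probe sets.

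Of the probe sets 22436 matched exactly 1 gene (17905 genes, 2446 named, names from a japonica table), 95 several and 34663 none. The brightest probe set stood for a gene. Named are the 20 largest rises and 20 largest falls with an adjusted p under 0.05, a log2 change of at least 1, separate arrays and a mean of at least 100, up to 3 called members of each list in each direction, and every member of short core lists. Other members were named after their values were seen, to complete a count. The 54 lists come from searches of gene symbols, with 82 matches to unrelated genes removed. Members and lists were chosen with earlier results of these data known. The number of arrays limits the precision.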

Additional observations from a re-analysis of the deposited data

Results flagged for a closer look

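The effect of withholding P differed with the Fe supply for 23 probe sets by the test of the difference itself (limma). For LTP2-B (LOC4351317) the effect without Fe was lower than that with Fe by a log2 difference of -3.01 (limma adjusted p = 0.0271), on a probe set that can bind related transcripts. Its control arrays, at 15.6 and 18.8, were dim and near the 16 added before log2, so the size of this difference depends on that number. For LTP2-B the log2 change in P deficiency was 3.07 with 1 added and 1.41 with 64 added. Other probe sets of LTP2-B gave changes of 1.16 (limma adjusted p = 0.244) and 0.52 (adjusted p = 0.358) in P deficiency. Their differences between the effects were -1.96 (adjusted p = 0.517) and -1.86 (adjusted p = 0.298), so none of these passed.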

How the results depend on the processing

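The counts below are probe sets called for P deficiency against control, then for combined deficiency against Fe deficiency, then for the difference of both effects, and were 4736, 1293 and 23 in the main setting. Without quantile normalization they were 5080, 1406 and 22, with arrays scaled to their own medians 4405, 783 and 25, with 1 added before log2 3082, 205 and 6, with 64 added 7473, 3614 and 63, with a mean intensity of at least 50 required 8756, 5029 and 67, and with a prior variance following the level 9121, 5741 and 355. The 4 arrays of P deficiency and control alone gave 0 for the first. The replicate numbers did not pair the samples (correlations of deviations -0.0173 to 0.0172), and a replicate block gave 2385, 19 and 0. Leaving out single arrays gave 3 to 2990, 2 to 60 and 0 to 5. Genes short of the threshold changed sign as follows. PLD1 was -0.06 with own-median centring, and without quantile normalization D3 was 0.07, OsWOX11 0.14 and OsWOX8 0.02. With single arrays left out, SIZ2 ranged from -0.21 to 0.15, OsSFR2 from -0.03 to 0.4, D3 from -0.16 to 0.1, OsCCD7 from -0.37 to 0.0, OsPT11 from -0.19 to 0.38, RLK10 from -0.42 to 0.0, OsSCR1 from -0.07 to 0.34, OsWOX11 from -0.27 to 0.24, OsWOX8 from -0.07 to 0.03 and OsCslD1 from -0.78 to 0.23. The cause was not tested. Counts of list members with each array left out were chosen after seeing the data: without either P deficiency array no member of the cellulose synthase, kinesin, cyclin, nitrogen, copper or photosynthesis lists was called. The promoter motif share was not run. Of probe sets with a mean under 50, 2.02% were called.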
